A study of Homo sapiens with 4 samples.

Results

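The 10 BCL2 family genes BCL2, BCL2L1, MCL1, BAX, BAK1, BCL2L11, BBC3, PMAIP1, BID and BIK were examined by RNA-seq in SKOV3, a long-established line of human ovarian cancer cells. They were taken by symbol from the 19475 gene symbols of the deposited table, and 10 of 10 were found. The libraries were 2 of cells on a tissue culture plate (TCP), placed at day 0 in the labels, and 2 of tumor spheroids grown on plates coated with polymer X, a thin polymer film on which cells attach poorly, placed at day 8. SKOV3 was the parent line of both groups. Substrate and day changed together between the groups. The methods give fetal bovine serum for maintained SKOV3 cells and serum replacement for spheroids, which were dissociated every few days, whereas the labels give serum replacement for all 4 libraries. The effects of substrate, time and medium cannot be told apart in this design.

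Proteins of the BCL2 family decide whether the mitochondrial outer membrane is opened, the committing step of intrinsic apoptosis. The survival proteins BCL2, BCL-XL (BCL2L1) and MCL1 hold the membrane closed, the effectors BAX and BAK (BAK1) form the pores that release cytochrome c, and the BH3-only proteins, among them BIM (BCL2L11), PUMA (BBC3), NOXA (PMAIP1), BID and BIK, bind the survival proteins or activate the effectors. In ovarian cancer, dependence on BCL-XL and MCL1 is a known feature, and detachment from a matrix is a known setting of BIM and BMF induction. Much of the control of these proteins is exerted on protein stability and binding, which RNA does not show.

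The 3 survival genes were lower in spheroids, the 2 effector genes were lower as well, and 4 of the 5 BH3-only genes were higher, while the values of PMAIP1 overlapped between the groups. Such a separation was common, since the groups did not overlap in 90.4% of all tested genes. The lower value of BAX depended on the scaling. BIK, BCL2L11 and BBC3 rose 4.79-, 4.47- and 2.76-fold in mean FPKM. FPKM, the unit throughout, counts sequenced tags relative to the length of the transcript and the depth of the library. Levels of different genes can thus be set side by side, but they depend on the transcript that stands for each gene. All 10 members reached 1 FPKM in 4 of 4 libraries, with 49 to 32578 tags behind a value, and none had to be left out. In bulk RNA, fewer cells expressing a gene and less RNA per cell cannot be told apart.

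4 windows before transcription start sites are shown, each holding a match to a motif named below. Their genes moved in different directions. BCL2L11 and BBC3, members that rose past the threshold, moved upward. BAX moved downward, by a step that depended on the scaling. BNIP3, a family relative outside the 10 members, moved upward. Each window is the 250 bases before the start in RefSeq (build GRCh38.p14), written 5′ to 3′ on the strand of the gene. Capitals mark matches, on either strand, to the letters of 4 motifs that were searched, TTCNNNGAA for STAT factors, GTAAACA for FOXO factors, ACGTG for hypoxia-inducible factors and TTTCCCGC for E2F factors. CACGTG holds ACGTG on both strands and is also the site of other factors.

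BCL2L11, chr2:111120664-111120913, plus strand: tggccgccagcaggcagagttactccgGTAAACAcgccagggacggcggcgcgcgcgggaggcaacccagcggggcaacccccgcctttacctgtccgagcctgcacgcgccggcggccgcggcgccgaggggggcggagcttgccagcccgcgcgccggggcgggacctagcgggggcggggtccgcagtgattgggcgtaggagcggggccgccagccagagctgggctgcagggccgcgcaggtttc

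BBC3, chr19:47232668-47232917, minus strand: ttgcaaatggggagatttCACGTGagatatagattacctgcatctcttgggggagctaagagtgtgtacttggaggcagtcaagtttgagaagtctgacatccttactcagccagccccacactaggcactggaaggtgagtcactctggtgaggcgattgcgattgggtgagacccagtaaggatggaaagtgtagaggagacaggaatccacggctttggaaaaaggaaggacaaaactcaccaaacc

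BAX, chr19:48954625-48954874, plus strand: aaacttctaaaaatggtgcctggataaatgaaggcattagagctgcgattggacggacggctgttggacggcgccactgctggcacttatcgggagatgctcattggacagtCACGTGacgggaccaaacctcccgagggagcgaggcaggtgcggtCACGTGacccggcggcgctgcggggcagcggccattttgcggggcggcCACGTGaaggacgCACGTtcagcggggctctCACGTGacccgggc

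BNIP3, chr10:131981924-131982173, minus strand: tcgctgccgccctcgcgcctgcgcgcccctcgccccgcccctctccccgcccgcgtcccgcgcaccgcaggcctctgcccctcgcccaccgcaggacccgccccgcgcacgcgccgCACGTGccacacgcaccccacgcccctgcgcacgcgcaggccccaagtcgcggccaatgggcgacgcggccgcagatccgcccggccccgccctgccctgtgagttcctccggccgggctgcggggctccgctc

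The window of BCL2L11 held the FOXO letters once, 223 bases before the start, which 2.98% of all 35116 windows did. The window of BAX had 5 marked stretches of the ACGTG letters, and those of BBC3 and BNIP3 had 1 each. BID, listed with several windows, held them in some of these and not in others. Of all windows 18.5% held at least 1, a share per window and not per gene. No member's window held the STAT letters (6.57% of all windows) or the E2F letters (1.39%). Windows were listed for 8 of the 10 members, not for MCL1 and BIK. Each window shown held a match, whereas those of BCL2, BCL2L1, BAK1 and PMAIP1 held none. The windows carry no transcript name and may not lie at the start of the transcript measured. These matches describe letters in these windows and were not tested as sites.

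Each gene was compared between polymer X and TCP on log2(FPKM + 1) with limma, which borrows the spread across genes, and p-values were adjusted by Benjamini-Hochberg over the 11964 genes with at least 1 FPKM in 2 or more libraries. A fold change on this scale understates that of genes with low FPKM. A gene is said here to rise or fall where its adjusted p was under 0.05, and is called higher or lower where its log2 fold change was also at least 1 in size. At the first criterion 4 members rose and 5 fell. Over all tested genes 37.4% rose and 43.6% fell, 81.0% in all, so passing this criterion was common. At the second, 3 members were called higher, against 10.7% of all tested genes, and 0 lower, against 9.45%, by the same limma fit. An unadjusted p under 0.05 from limma gave the same 4 members higher and the same 5 lower. At least 81.0% of all tested genes passed that looser criterion. Both polymer X libraries lay above both TCP libraries for 4 members, as for 41.9% of the tested genes, and below them for 5, as for 48.4%. With 2 libraries in each group, the smallest two-sided p of an exact permutation test would be 0.333. The labels do not say whether the duplicates came from separate cultures, so the p-values measure the spread between these libraries, which may be technical.

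**Figure D1:**
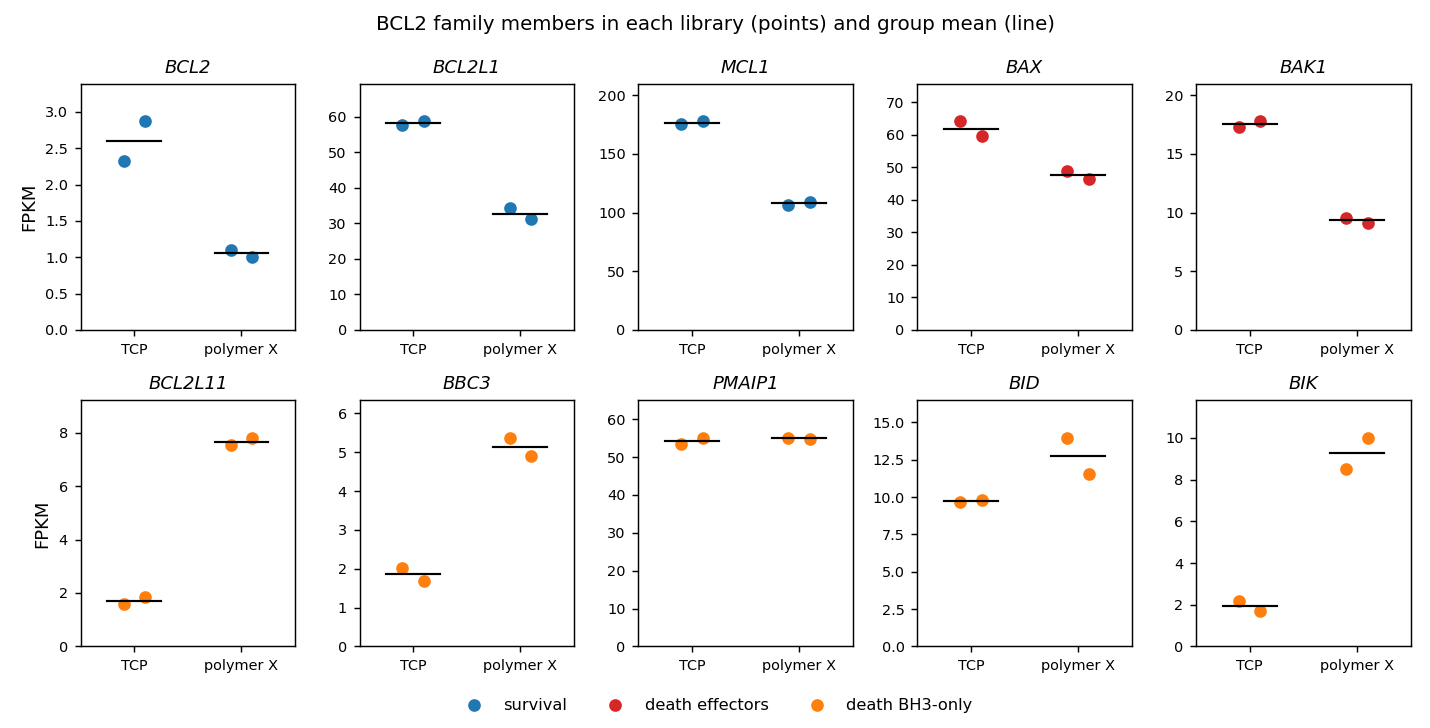
FPKM of the 10 members in each library (points), with the mean of each group (line); the vertical axes start at 0 and differ between panels. The survival genes (blue) and effectors (red) lay lower in both polymer X libraries, and of the BH3-only genes (orange) BCL2L11, BBC3, BID and BIK lay higher, while the PMAIP1 values overlapped.

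MCL1, whose short-lived protein restrains BAK and BIM, was the most abundant member by FPKM in both groups (NM_021960, chr1:150547027-150552214, hg19). Its FPKM was 175 and 178 in TCP replicates 1 and 2, and 107 and 109 in polymer X replicates 1 and 2. The libraries of the groups did not overlap, and MCL1 fell from 176.6 ± 1.66 (SD, n = 2) to 107.8 ± 1.39 (SD, n = 2), with a log2 fold change of -0.71 (standard error, SE, 0.05, adjusted p = 1.9e-06 from limma). BCL2L1 (NM_001322242, chr20:30252255-30310355), which encodes BCL-XL and from a shorter splice form the pro-death BCL-XS, measured 57.8 and 58.8 FPKM on TCP and 34.2 and 31.3 on polymer X. Every polymer X value lay below every TCP value, at a log2 fold change of -0.81 (SE 0.06, adjusted p = 1.5e-06 from limma). With quantile normalization both falls were smaller, at -0.35 for MCL1 and -0.52 for BCL2L1 (adjusted p = 3.9e-04 and 2.5e-05 from limma).

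BCL2 itself, the founding survival gene of the family (NM_000657, chr18:60985187-60986613), was the least abundant of the 3 survival genes. It measured 2.32 and 2.87 FPKM on TCP, from 107 and 155 tags, and 1.10 and 1.00 on polymer X, from 53 and 49 tags. The groups did not overlap, and the log2 fold change was -0.80 (SE 0.09, adjusted p = 3.5e-05 from limma). It was -1.24 with quantile normalization and -1.22 with a pseudocount of 0.1, past the minimum in both cases. In mean FPKM this transcript of BCL2 was 2.47-fold lower on polymer X, against 1.78-fold for BCL2L1 and 1.64-fold for MCL1. The value of BCL2 depended on the transcript, and so did this order. The listed transcript NM_000633, which is 6487 bases long against 1202, measured 0.919 and 0.988 FPKM on TCP and 0.705 and 0.758 on polymer X, lower in spheroids too but by a smaller step, and it did not pass the filter on low values.

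Among the effectors, BAK1 (NM_001188, chr6:33540323-33548070) measured 17.3 and 17.8 FPKM on TCP and 9.52 and 9.13 on polymer X. It was 1.88-fold lower in spheroids, at a log2 fold change of -0.84 (SE 0.06, adjusted p = 1.1e-06 from limma). BAX (NM_138764, chr19:49458117-49465055), its cytosolic counterpart, measured 64.2 and 59.5 FPKM on TCP and 48.9 and 46.5 on polymer X. BAX fell less, by 0.37 on the log2 scale (SE 0.06, adjusted p = 3.5e-04 from limma), with no overlap between the groups. With quantile normalization the log2 fold change of BAX was -0.04 (adjusted p = 0.50 from limma), so its fall depended on the scaling. The ratio of BAX to BAK1 was 3.53 ± 0.262 (SD, n = 2) on TCP and 5.11 ± 0.031 (SD, n = 2) on polymer X.

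The BH3-only genes held the largest changes among the members. BIK (NM_001197, chr22:43506754-43525718), an endoplasmic reticulum-associated antagonist of the survival proteins, measured 2.17 and 1.69 FPKM on TCP, from 79 and 72 tags, and 8.53 and 10.0 on polymer X, from 323 and 385 tags. Both polymer X values lay well above both TCP values. Its log2 fold change was 1.81 (SE 0.10, 95% interval 1.58 to 2.04, adjusted p = 2.3e-07 from limma), and 96.8% of the tested genes had a smaller value.

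BCL2L11 (NM_138627, chr2:111878491-111926022) encodes BIM, which binds all the survival proteins and activates BAX and BAK directly. It measured 1.59 and 1.83 FPKM on TCP and 7.52 and 7.81 on polymer X. The replicates lay close together and the groups far apart, at a log2 fold change of 1.68 (SE 0.08, 95% interval 1.50 to 1.85, adjusted p = 6.7e-08 from limma). BBC3 (NM_014417, chr19:47724079-47734451), the gene of PUMA, which binds all the survival proteins, measured 2.03 and 1.70 FPKM on TCP and 5.37 and 4.90 on polymer X. Its log2 fold change was 1.10 (SE 0.09, adjusted p = 2.1e-06 from limma), and 0.93 with quantile normalization, under the minimum of 1.

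BID, whose protein links death receptors to mitochondria once caspase-8 has cut it (NM_001196, chr22:18216906-18257261), measured 9.70 and 9.79 FPKM on TCP and 14.0 and 11.6 on polymer X. It rose by a small step, a log2 fold change of 0.35 (SE 0.08, adjusted p = 0.0036 from limma), and polymer X replicate 1 carried much of it. Without that library the value was 0.22. PMAIP1 (NM_021127, chr18:57567192-57571538), whose product NOXA neutralizes MCL1, measured 53.5 and 55.1 FPKM on TCP and 55.1 and 54.8 on polymer X. The groups overlapped, and the log2 fold change was 0.02 (95% interval -0.10 to 0.14, adjusted p = 0.77 from limma). With quantile normalization it was 0.33 (adjusted p = 3.6e-04 from limma).

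**Figure D2:**
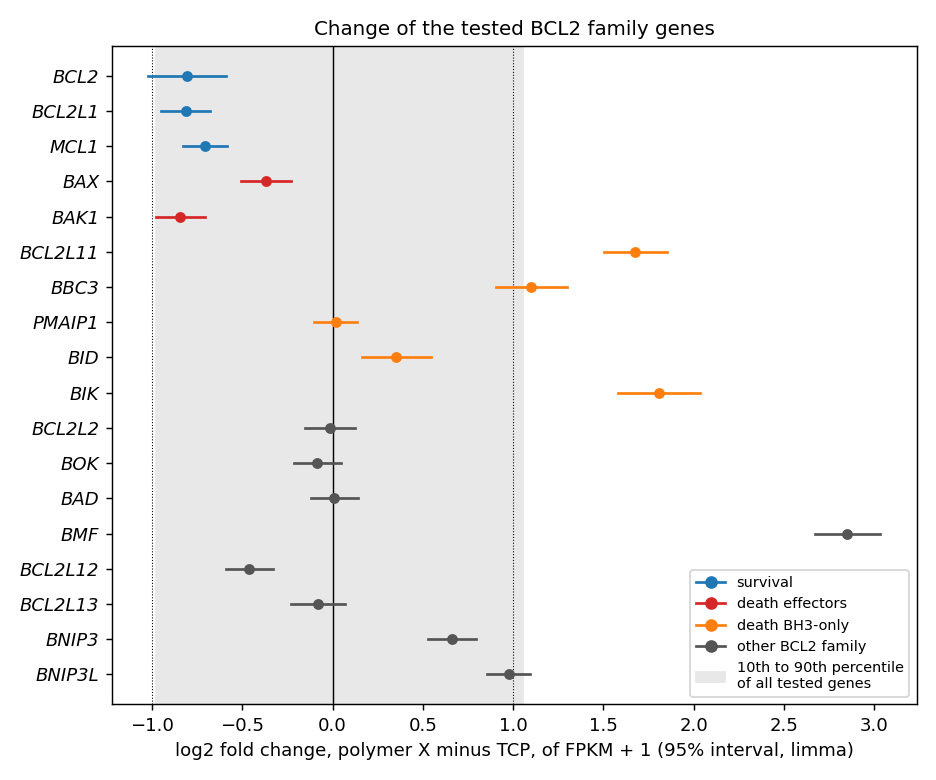
Log2 fold change of polymer X minus TCP on log2(FPKM + 1), with 95% intervals from limma, for the members and the tested relatives; dotted lines lie at -1 and 1 and the grey band spans the 10th to the 90th percentile of all tested genes, -0.98 to 1.05. BIK, BCL2L11, BBC3 and BMF lie above the band, and the survival genes and effectors lie inside it on the lower side.

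Against the spread of all tested genes on log2(FPKM + 1), the lower values of the survival genes were moderate. Between 14.4% and 18.0% of the genes changed further downward. This scale understates the fall of BCL2, whose FPKM was low. The median log2 fold change was -0.80 for the 3 survival genes, -0.61 for the 2 effectors and 1.10 for the 5 BH3-only genes, where the median of all tested genes was -0.06. Over all 10 members it was -0.18. In 9 of the 10 members, and in 90.4% of the tested genes, the groups did not overlap.

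The order of the levels changed only in part. On TCP it ran from MCL1 at 176.6 FPKM through BAX, BCL2L1, PMAIP1, BAK1, BID and BCL2 to BIK, BBC3 and BCL2L11, and the ranges of the last 3, at 1.93, 1.86 and 1.71 FPKM, overlapped from each to the next. On polymer X MCL1 stayed first at 107.8 FPKM, PMAIP1 came second ahead of BAX and BCL2L1, and BAK1 and BIK had overlapping ranges at 9.33 and 9.27 FPKM. BCL2 came last at 1.05 FPKM, below BIK, BCL2L11 and BBC3, which it had exceeded on TCP. That change of rank held for NM_000657 and not for NM_000633, the longer transcript of BCL2, which at 0.919 and 0.988 FPKM lay below all 3 on TCP as well.

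Set side by side within each library, the survival genes were lower relative to the death genes in spheroids. The summed FPKM of the 3 survival genes was 236 and 239 on TCP and 142 and 141 on polymer X. That of the 2 effectors was 81.5 and 77.3 on TCP and 58.4 and 55.6 on polymer X. The sum of the 5 BH3-only genes moved the other way, from 69.0 and 70.1 to 90.5 and 89.1 FPKM.

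The ratio of survival to all 7 death genes was 1.57 and 1.62 in the TCP libraries and 0.955 and 0.975 in the polymer X libraries. Against the effectors alone the ratio was 2.89 and 3.10 on TCP and 2.43 and 2.54 on polymer X, a smaller step, since both sums were lower. Against the BH3-only genes it was 3.41 and 3.42 on TCP and 1.57 and 1.58 on polymer X. These sums are dominated by abundant genes, and MCL1 made up 74.4% of the survival sum on TCP and 76.1% on polymer X. PMAIP1 made up 78.1% and 61.2% of the BH3-only sum. Without PMAIP1, the BH3-only sum was 15.3 ± 0.342 FPKM (SD, n = 2) on TCP and 34.8 ± 0.804 (SD, n = 2) on polymer X. The ratios carry no test, and transcript levels do not give the amounts of protein.

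Ratios of single binding partners changed by unlike amounts, and those to BCL2L11 changed far more than the ratios of sums. MCL1 exceeded BCL2L11 110-fold and 96.9-fold in the TCP libraries and 14.2-fold and 13.9-fold in the polymer X libraries. BCL2L1 exceeded BCL2L11 34.2-fold on TCP and 4.28-fold on polymer X, as means over 2 libraries. The ratio of MCL1 to its antagonist PMAIP1 was 3.28 and 3.23 on TCP and 1.94 and 1.98 on polymer X. By contrast the ratio of BCL2L1 to BAK1, which bind each other, was 3.35 and 3.31 on TCP and 3.59 and 3.43 on polymer X, since the 2 genes fell by like amounts. The ratio of BCL2L1 to BAX was 0.900 and 0.988 on TCP and 0.700 and 0.673 on polymer X.

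**Figure D3:**
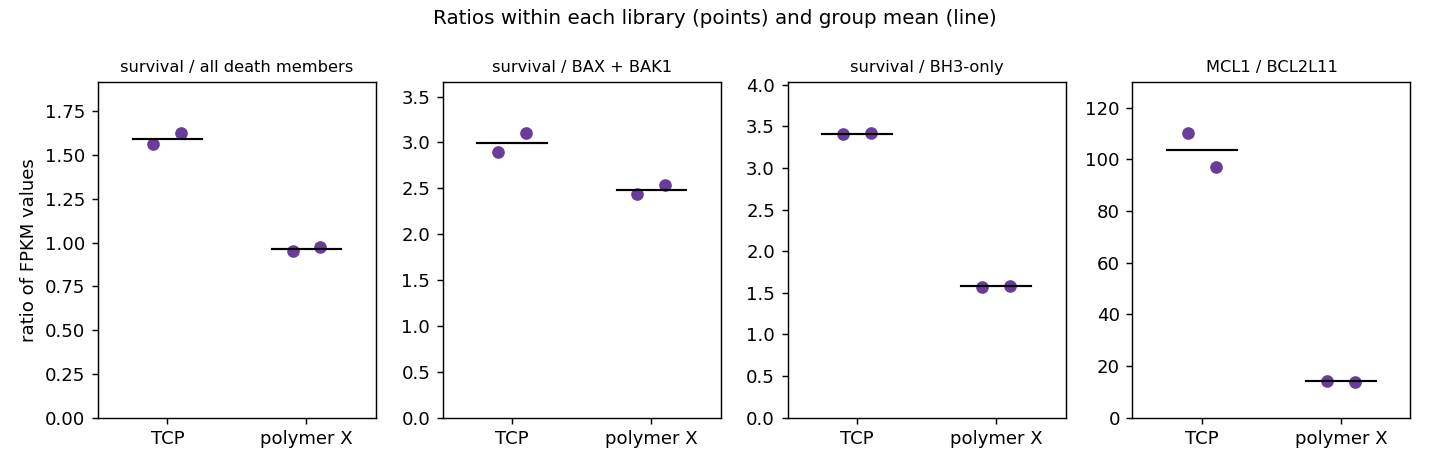
Ratios of FPKM values within each library (points) and the mean of each group (line) for the survival genes over all death genes, over BAX and BAK1, over the BH3-only genes, and for MCL1 over BCL2L11; the vertical axes start at 0. All 4 ratios were lower in both polymer X libraries than in both TCP libraries.

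Most members are listed with several RefSeq transcripts that share exons, and a tag on a shared exon was counted for each, so splice forms are not separated. The 8 transcripts of BCL2L1 gave ratios of polymer X to TCP of 0.559 to 0.567, the 3 of MCL1 0.610 to 0.625, and the 8 of BAX 0.696 to 0.774. The 18 transcripts of BCL2L11 gave ratios of 3.44 to 4.47, where the 2 lowest values came from NM_207002 and NM_001204113 of 716 and 942 bases. For BBC3 the 4 transcripts lay between 2.68 and 2.79, and for BID the 7 lay between 1.31 and 1.46. BCL2 had the widest spread among the survival genes, 0.405 and 0.767. BAK1, PMAIP1 and BIK had 1 transcript each. Within each member all listed transcripts lay on one side of 1.

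**Figure D4:**
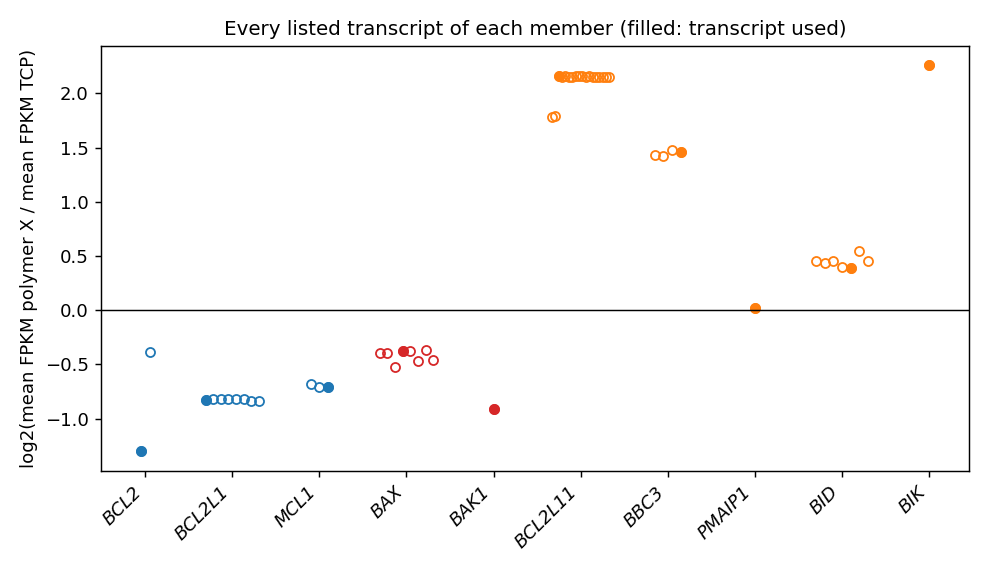
Log2 of the ratio of mean FPKM on polymer X to that on TCP for every listed transcript of each member, in order of length from left to right; filled points mark the transcript used. The transcripts of a gene lie close together except for BCL2, at ratios of 0.405 and 0.767, and the 2 short forms of BCL2L11.

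Of 13 further genes of the family, 8 were tested, and 1 was called higher and 0 lower by limma. At an adjusted p under 0.05, 3 rose and 1 fell, and the median log2 fold change of the 8 was -0.003. Among all tested genes 37.4% rose, 43.6% fell, 10.7% were called higher and 9.45% lower. The same shares apply to the lists below. BMF (NM_001003942, chr15:40380092-40398287) is a BH3-only gene whose protein is held at the actin and myosin motor complex. It measured 0.612 and 0.467 FPKM on TCP and 9.93 and 10.3 on polymer X. Its tags numbered 103 and 92 on TCP and 1742 and 1833 on polymer X, a rise of 18.7-fold in mean FPKM (log2 fold change 2.85, SE 0.08, adjusted p = 4.2e-09 from limma). BMF passed the filter only through the polymer X libraries, so it could only be tested because it was high there. Of MCL1 and BMF, MCL1 was 334-fold more abundant on TCP and 10.7-fold on polymer X, as means over 2 libraries.

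HRK, another BH3-only gene, was not tested because 1 library alone reached 1 FPKM. It had 18 and 13 tags on TCP and 213 and 252 on polymer X, a ratio of tag rates of 15.5 with an exact counting interval of 10.8 to 23.1 at 95%. BCL2L15, a weakly pro-apoptotic relative, was at 10 and 17 tags on TCP and 195 and 237 on polymer X and was not tested for the same reason. These intervals cover counting error only. BAD, the BH3-only gene controlled by growth factor-dependent phosphorylation, measured 28.0 and 26.1 FPKM on TCP and 27.1 and 27.3 on polymer X, for a log2 fold change of 0.01 (95% interval -0.12 to 0.14, adjusted p = 0.88 from limma). With quantile normalization it was 0.25 (adjusted p = 0.0031 from limma).

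The mitophagy receptors BNIP3 and BNIP3L, which carry BH3-like segments and are known targets of hypoxia-inducible factors, rose without reaching a log2 fold change of 1. BNIP3 measured 56.9 and 52.7 FPKM on TCP and 85.9 and 88.2 on polymer X (log2 fold change 0.66, SE 0.06, adjusted p = 5.2e-06 from limma). BNIP3L measured 32.3 and 32.5 FPKM on TCP and 65.2 and 63.9 on polymer X (log2 fold change 0.97, SE 0.05, adjusted p = 1.9e-07 from limma). With quantile normalization and with scaling to a common median the log2 fold change of BNIP3L was 1.27 and 1.02, past the minimum, as it was at 1.00 with the transcripts summed.

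The survival gene BCL2L2, encoding BCL-W, measured 14.5 and 15.2 FPKM on TCP and 14.3 and 15.0 on polymer X, and it shares sequence with the readthrough gene BCL2L2-PABPN1. Its log2 fold change of -0.02 had a 95% interval of -0.15 to 0.12. BOK, a pore-forming relative of BAX, had a log2 fold change of -0.09 (95% interval -0.22 to 0.04), and BCL2L13, another mitophagy receptor, one of -0.08 (95% interval -0.23 to 0.07). BCL2L12 fell from 17.1 ± 0.330 to 12.2 ± 0.016 FPKM (SD, n = 2 each; log2 fold change -0.46, adjusted p = 5.4e-05 from limma). It overlaps IRF3 on the opposite strand over 734 bases, and counting did not use strand. BCL2A1 and BCL2L14 had at most 3 tags in any library, and BCL2L10 had 0 and 0 tags on TCP and 5 and 4 on polymer X, too few to read a difference.

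Of the 15 genes of the apoptosome and caspases, 4 rose and 8 fell, where 37.4% and 43.6% of all tested genes did. Not all of them act downstream of the mitochondria, since the list includes CASP8 and CASP10. The 15 had a median log2 fold change of -0.23, and 1 was called in each direction. CYCS, encoding cytochrome c, fell from 17.8 ± 1.44 to 4.92 ± 0.494 FPKM (SD, n = 2 each; log2 fold change -1.66, adjusted p = 1.0e-07 from limma). Its value is uncertain, since it has many processed pseudogenes that can take its tags. CASP10, an initiator caspase of death receptors, rose from 0.710 ± 0.037 to 3.49 ± 0.095 FPKM (SD, n = 2 each; log2 fold change 1.39, adjusted p = 2.4e-07 from limma) and passed the filter through polymer X alone. With a pseudocount of 0.1 its log2 fold change was 2.15.

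Of the caspase inhibitors, 6 of 8 were tested, of which 1 rose and 2 fell, with a median log2 fold change of -0.08. BIRC5, encoding survivin, which is also a mitotic protein, was the 1 gene called, and it fell from 75.3 ± 2.84 to 11.6 ± 0.869 FPKM (SD, n = 2 each; log2 fold change -2.60, adjusted p = 2.6e-09 from limma). All 6 cell cycle genes set beside it, MKI67, TOP2A, CCNB1, CDK1, PCNA and MCM2, were called lower too, against 9.45% of all tested genes. The median log2 fold change of the 6 was -1.89. Their part in the value of BIRC5 was not tested.

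Genes of the mitochondrial outer membrane and of mitochondrial fusion and fission mostly fell. Of 11 tested genes 9 fell and 0 rose, against 43.6% and 37.4% of all tested genes. The median log2 fold change of the 11 was -0.60. MFN2, encoding mitofusin 2, was the 1 gene called lower, at 33.6 ± 2.29 FPKM on TCP and 15.6 ± 0.925 on polymer X (SD, n = 2 each; log2 fold change -1.05, adjusted p = 6.2e-07 from limma). Its log2 fold change was -0.99 without TCP replicate 2, -0.998 without polymer X replicate 2 and -0.85 with quantile normalization, none of which reached the minimum.

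Regulators that are known to act on BH3-only genes were examined as a list of 9, of which 7 were tested. Of these 5 rose, 1 fell and 1 did not pass the test, where 37.4% of all tested genes rose. FOXO1 and FOXO4, members of the FOXO family that drives BCL2L11, were called higher, at log2 fold changes of 1.25 and 1.25 (adjusted p = 5.4e-07 and 3.4e-07 from limma). FOXO3, more abundant than either in both groups, rose less, from a mean of 8.96 to 11.4 FPKM (log2 fold change 0.31, adjusted p = 0.0013 from limma). FOXO1 passed the filter through polymer X alone, and its log2 fold change was 0.93 with quantile normalization and 1.87 with a pseudocount of 0.1. DDIT3, the stress factor CHOP, rose from 21.4 ± 0.466 to 55.9 ± 1.99 FPKM (SD, n = 2 each; log2 fold change 1.34), and its target TRIB3 had a log2 fold change of 1.28. E2F1, a cell cycle factor that can also induce BH3-only genes, fell from 29.5 ± 1.16 to 8.98 ± 0.708 FPKM (SD, n = 2 each; log2 fold change -1.61).

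Of 10 genes for partners and turnover of the family proteins, 1 rose, 5 fell and 4 did not pass the test, with a median log2 fold change of -0.10 and 0 called in either direction by limma, or 1 called higher with quantile normalization, TPT1 at 1.11. TPT1, encoding an MCL1-binding protein, had the largest rise at 0.76, with the reservation that it too has many processed pseudogenes, and BAG3, a co-chaperone that stabilizes survival proteins, the largest fall at -0.71 (adjusted p = 2.1e-06 from limma for each).

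**Figure D5:**
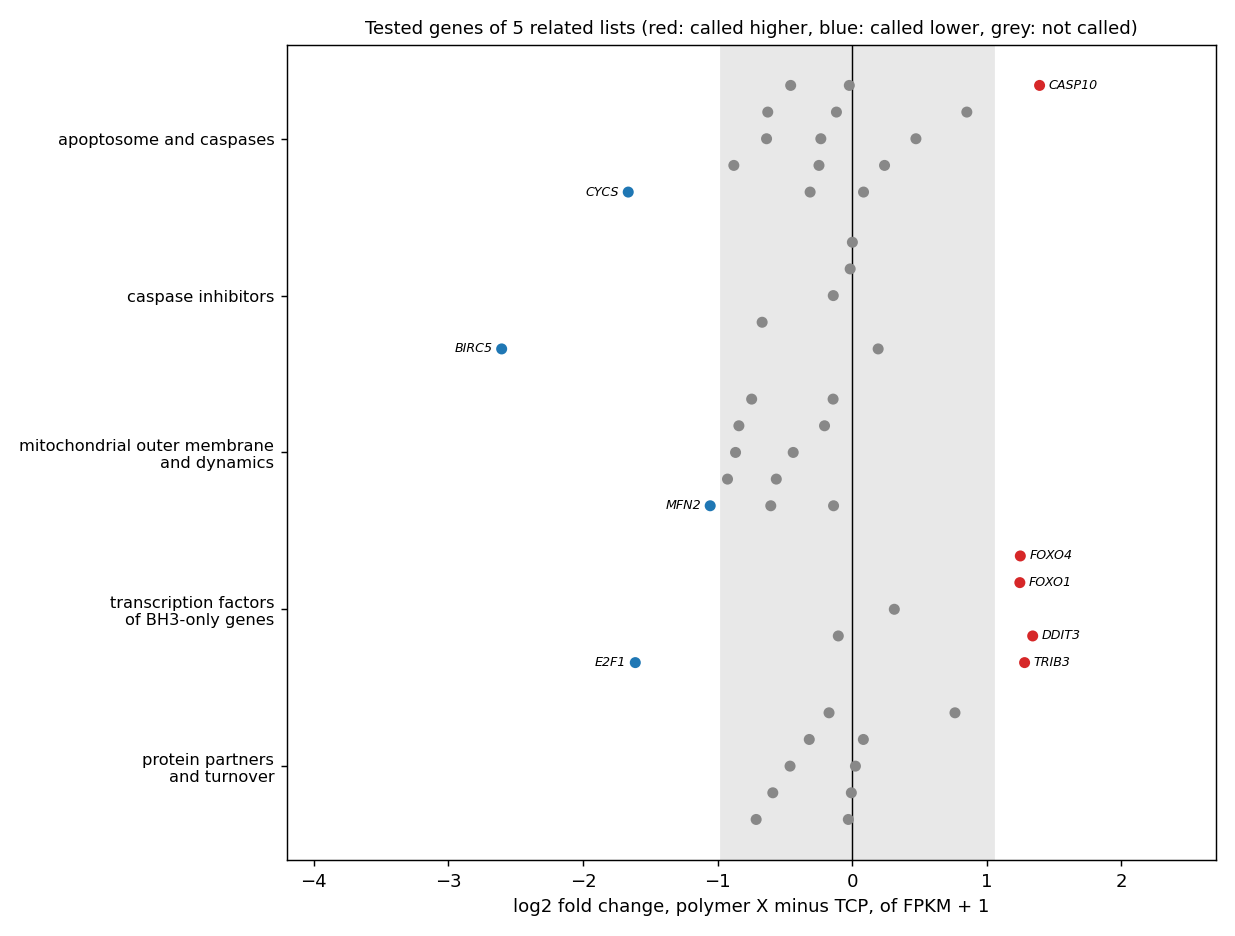
Log2 fold change of polymer X minus TCP on log2(FPKM + 1) for the tested genes of 5 related lists, 1 point per gene (red called higher, blue called lower, grey not called); vertical position within a row only separates the points, and the grey band spans the 10th to the 90th percentile of all tested genes. The mitochondrial genes lie to the left of 0, while FOXO1, FOXO4, DDIT3 and TRIB3 lie between 1.25 and 1.34.

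Of the 6 markers of the line, 4 were well expressed in both groups, but their levels moved. ERBB2, a gene amplified in SKOV3, measured 198 and 206 FPKM on TCP and 913 and 860 on polymer X, a called rise of 4.39-fold in the mean. PAX8, a factor of the Müllerian lineage, was called higher too, at 2.11-fold. The keratin genes KRT8 and KRT18 fell instead, by 0.87 and 0.44 on the log2 scale, of which that of KRT18 did not pass the test with quantile normalization (adjusted p = 0.11 from limma). EPCAM and KRT19 stayed under 1.40 FPKM, although EPCAM had 11 and 8 tags on TCP and 95 and 92 on polymer X and was called higher, having passed the filter through polymer X alone. With quantile normalization the log2 fold change of EPCAM was 0.47, under the minimum.

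Of 8 markers of other cell types, 2 were tested. CD68, which epithelial cells also express in lysosomes, was called higher (log2 fold change 1.29), from 17.2 ± 0.231 FPKM on TCP to 43.6 ± 1.86 on polymer X (SD, n = 2 each), and COL1A1 fell (log2 fold change -0.96). PTPRC, the leukocyte marker CD45, had 1 and 0 tags on TCP and 92 and 106 on polymer X. PECAM1, an endothelial marker, had 0 and 0 tags on TCP and 102 and 83 on polymer X. Both stayed under 0.60 FPKM and were not tested. The T cell marker CD3E was at 0 in every library, and VWF, PDGFRB and RGS5 were under 1 FPKM. The summed FPKM of the 8 was 26.1 to 26.5 on TCP and 47.7 to 50.2 on polymer X. Of 6 hypoxia-inducible genes, CA9, VEGFA, ADM, NDRG1, PDK1 and EGLN3, 5 were called higher, against 10.7% of all tested genes. The median log2 fold change of the 6 was 3.66. The part of these in the changes of the family was not tested.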

How the data were processed

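SKOV3 RNA-seq libraries were analysed, 2 from TCP at day 0 and 2 from polymer X at day 8, grouped by their titles. The authors deposited FPKM values per RefSeq transcript on hg19, made with HOMER (analyzeRepeats.pl) from tags on exons without regard to strand, per the file headers. The submitters' processing notes list STAR 2.4.0, HOMER and DESeq, and trimming and the HOMER version are not given in the sources used here. The file header also names libraries on other surfaces, which were not analysed here.

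FPKM multiplied by length fell within 0.1 of whole tags for 100% of the low values examined, which put the libraries at 38404000 to 44916000 tags. At 3 tags, a transcript of 2000 bases has an FPKM of 0.033 to 0.039. Replicates of a group differed beyond counting error (mean chi-square with 1 degree of freedom, 5.43 for TCP and 6.41 for polymer X).

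Each symbol was represented by its most abundant transcript on average over the 4 libraries. The test was limma 3.58.1 (R 4.3.3) on log2(FPKM + 1), using a trend of the variance with the mean and Benjamini-Hochberg adjustment over all tested genes. It was also run on simulated data in which few genes changed, whereas 81.0% passed an adjusted p of 0.05 here. That simulation therefore does not bear on the calls in these libraries. Counting intervals are exact binomial. The members and the gene lists were chosen with earlier results of these data known. Every family gene was named, and of each other list the called genes, up to 4 per direction, or else the 2 with the largest change. FOXO3 was added beside FOXO1 and FOXO4. A further regulator and the list built on it are not reported here. No protein sequences were used here. Alternatives were a pseudocount of 0.1, no filter or a mean of at least 5 FPKM, quantile or median scaling, a replicate block, summed or longest transcripts, no variance trend, no minimum fold change and each library left out. Plots were drawn with matplotlib 3.10.9.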

Additional observations from a re-analysis of the deposited data

How the results depend on the processing

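Of the 126 values that the 10 members took under the alternatives, 123 kept their direction and their side of an adjusted p of 0.05. The others were BAX and PMAIP1 with quantile normalization, given with the results, and PMAIP1 without TCP replicate 1, at -0.0033. Members called higher numbered 3, or 2 with quantile normalization, where 5 rose and 4 fell at an adjusted p under 0.05, or 1 at a mean of at least 5 FPKM, where fewer members are tested and the count at an adjusted p under 0.05 is 2 in place of 4. They numbered 3 with each library left out. Members called lower numbered 0, or 1 with a pseudocount of 0.1 and 1 with quantile normalization, BCL2 in both cases, and 5 with no minimum fold change. With the longest transcripts 4 members fell in place of 5, since BCL2 did not pass the filter. Over all genes, 1285 were called higher and 1131 lower, against 702 higher at a mean of at least 5 FPKM and 4477 higher and 5212 lower with no minimum fold change. With a library left out, the remaining library of its group is assumed to vary like the other group.

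The ratio of survival to death genes, 1.59 on TCP and 0.965 on polymer X, was 1.74 and 1.06 with the longest transcripts, 0.908 on polymer X with summed transcripts, and 2.99 and 2.48 with effectors alone as death genes. As a difference of mean log2(FPKM + 1) it was 1.65 on TCP and 0.34 on polymer X. Among relatives that did not pass the test, BCL2L2 changed sign with quantile normalization (0.14), a common median (0.025) and without TCP replicate 2 (0.017) or polymer X replicate 1 (0.013), BOK with quantile normalization (0.14) and BAD without TCP replicate 2 (-0.037). BMF, CASP10 and FOXO1 could not be tested without a polymer X library. Over the fits with a library left out, the log2 fold change ranged from -0.0033 to 0.0381 for PMAIP1, from -0.0475 to 0.0167 for BCL2L2 and from -0.0372 to 0.0574 for BAD. The cause of these changes was not tested.

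With the replicate number as a block, 3 members were called higher and 0 lower, and 1285 genes were called higher and 1131 lower. Over 11964 genes the correlation of deviations between libraries of equal number was 0.093, and the numbers were not taken as pairs.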
